A study of Mus musculus with 93 samples.

Results

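Oocytes of wild type mice aged 7 weeks were set against oocytes of wild type mice aged 4 weeks, a step from the weeks around puberty to the young adult ovary. The comparison used 17 of the 93 libraries of the study, 5 from 7 weeks and 12 from 4 weeks, chosen by their labels alone, and it took in all genes. The study profiled oocytes and granulosa cells from wild type mice and from knockout mice for estrogen receptor beta (gene Esr2) at 4 weeks, 7 weeks and 6 months. The knockout oocytes averaged 0.063 CPM of Esr2 at 7 weeks and 0.0272 CPM at 4 weeks, against 62.2 and 89.9 CPM in wild type oocytes of the same ages (CPM are TMM-scaled counts relative to library size). The 17 libraries carry no treatment and no altered allele as far as the labels say, and the labels give no strain. Libraries were made with Smart-seq2, which copies whole transcripts from minute amounts of RNA. The labels name no animals, litters, batches or number of oocytes per library, so every p-value rests on differences among libraries of 1 group, some of which may be technical. Each age came as its own table, so age and anything that was done separately for each age cannot be told apart.

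The oocyte grows inside the follicle while arrested in meiosis. It stores messenger RNA and protein for the divisions that follow ovulation and for the first days of the embryo, when the embryo's own genome is still silent. During growth it secretes the zona pellucida, the glycoprotein coat through which sperm bind, and it sends growth factors such as GDF9 and BMP15 to the granulosa cells around it. That secretion runs through the endoplasmic reticulum, where chaperones fold the new proteins. Because transcription falls silent in the fully grown oocyte, its RNA reflects storage and decay as much as synthesis. In bulk libraries of this kind, fewer cells and less RNA per cell cannot be told apart.

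Library totals ran from 2278359 to 5209449 estimated counts at 7 weeks and from 2415445 to 6485253 at 4 weeks, and genes with at least 1 count from 13161 to 14899 at 7 weeks and from 13034 to 15133 at 4 weeks. The 16 oocyte markers summed to 11926 to 23191 CPM at 7 weeks and to 16754 to 40660 CPM at 4 weeks, and the 10 granulosa markers present to 391 to 945 CPM at 7 weeks and 408 to 1746 CPM at 4 weeks. In every library the oocyte sum was above the granulosa sum. The 1 shallowest library of each age stood apart from the rest. A locus annotated as ribosomal RNA took 8.07% of the counts in 7 week library 1 and at most 2.07% in the other 7 week libraries. The same locus took 4.29% in 4 week library 5, and between 0.134% and 2.44% in the other 4 week libraries. The difference in this share between the ages did not pass (exact two-sided permutation p = 0.0834, adjusted p = 0.167 over 6 library measures). A length tilt, the rank correlation across genes of a library's expression, relative to the mean library, with transcript length, had a median of 0.0618 at 7 weeks and -0.132 at 4 weeks (exact permutation p = 0.0175, adjusted p = 0.0524). Of the 6 measures, the TMM factor that scales each library's total was the one that passed. It ran from 1.07 to 1.18 at 7 weeks (median 1.14) and from 0.864 to 1.18 at 4 weeks (median 0.995). The mean log2 difference was 0.19 (exact permutation p = 0.0042, adjusted p = 0.0252). Every CPM value of the oocyte libraries rests on this factor.

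**Figure D1:**
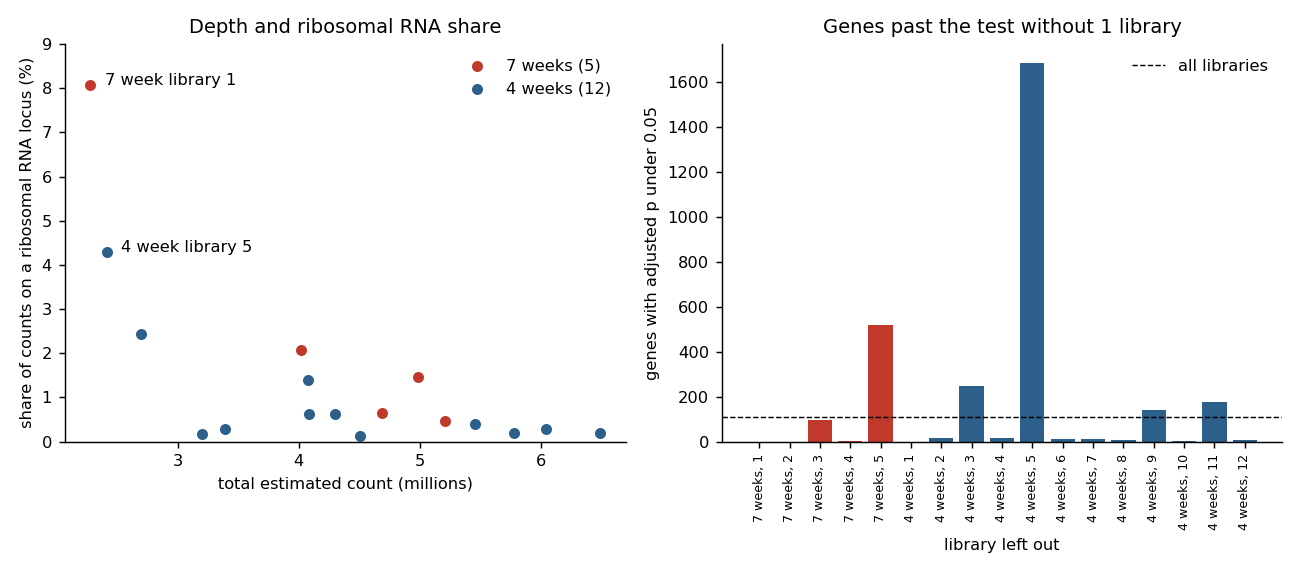
The left panel plots each library's share of counts on a ribosomal RNA locus (percent) against its total estimated count, with 7 week libraries in red and 4 week libraries in blue. The right panel gives, as bars, the number of genes past the test after 1 library was left out, and a dashed line at the 111 genes found with all libraries. Without 7 week libraries 1 or 2, or 4 week library 1, the number was 0, and without 4 week library 5 it was 1686.

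Of 13471 genes tested, 111 passed at an adjusted p under 0.05 (quasi-likelihood F test in edgeR, Benjamini-Hochberg adjusted), which is 0.824%. At 7 weeks 33 of these were higher (0.245%) and 78 were lower (0.579%). Among the higher genes 24 differed by at least 2-fold, and among the lower genes 48 did. The median log2 difference was 1.35 for the higher and -1.08 for the lower genes, against 0.00 over all genes tested. The lower genes were the more abundant, with a median of 154 CPM in the group where each was higher, against 30.4 CPM for the higher genes and 13.8 CPM over all genes. At an unadjusted p under 0.05 there were 3100 genes (23.0%). Libraries of the 2 ages did not overlap at all for 18 genes (0.134%). Of these 10 were among the 111, and they include Elk4, Epb41l4b and Slc25a23 among the higher genes and Senp5, Lamtor1 and Rbbp4 among the lower ones.

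The number of genes past the test was not stable, and the smallest adjusted p was 0.028. When the test was fitted to the 2 wild type groups alone, without the other oocyte libraries that share the estimate of spread, 0 genes passed (edgeR, smallest adjusted p = 0.0571), with 2818 at an unadjusted p under 0.05. DESeq2 called 1109 genes and limma voom 215 in the fit to all groups. The 2 shallowest libraries were also extreme for these genes. Library 5 was the lowest of the 12 at 4 weeks for 66 of the 78 lower genes and the highest for 22 of the 33 higher genes, against 20.1% and 18.2% of all genes. Library 1 was the lowest of the 5 at 7 weeks for 57 of the lower genes and the highest for 22 of the higher genes, against 36.5% and 28.4% of all genes. Without both libraries 7 genes passed, all of them lower and all among the 78. Left out singly, 7 week library 1 gave 0 genes and 4 week library 5 gave 1686. Both lie on the same side of their groups for most of these genes, so leaving out both moves both means the same way. That setting therefore cannot show that fold changes are stable. With 1 library left out, the log2 difference ran from 1.15 to 1.73 for Smarcc2 and from -1.74 to -1.43 for Lurap1l. Over the 39 named genes past the test, the log2 difference without both libraries was between 0.833 and 1.13 times its full value. With the ribosomal RNA share as a covariate it was a median of 0.735 times the full value and 1 gene passed. With the length tilt as a covariate it was 0.689 times the full value and 0 genes passed. All 111 genes kept their direction in each of these settings in which they had a value.

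Gdf9, the growth factor that drives granulosa cell growth and cumulus expansion, was the most abundant gene among those that fell. It measured 4291, 8113, 11395, 6190 and 11095 CPM in 7 week libraries 1 to 5, against a lowest of 5377, a median of 20130 and a highest of 29934 CPM at 4 weeks. The 7 week libraries all lay below the 4 week median, and only 4 week library 5 reached into their range. The log2 difference was -1.22 ± 0.31 (SE, adjusted p = 0.0422). It was -1.18 ± 0.32 without the 2 shallowest libraries, with an adjusted p of 0.0702. Gdf9 alone took 0.499% to 1.30% of all counts at 7 weeks and 0.634% to 2.67% at 4 weeks. The gene lies on chromosome 11 from 53431023 to 53437904 (plus strand, GRCm38).

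Zp1, which encodes a zona pellucida protein that cross-links its filaments, fell as well. Its levels at 7 weeks were 33.6, 106, 120, 82.2 and 109.6 CPM in libraries 1 to 5, against 78.4 (lowest), 208 (median) and 293 CPM (highest) at 4 weeks. All 5 were below the 4 week median, and 4 week library 5 was again the lowest of its group. The log2 difference was -1.21 ± 0.32 (adjusted p = 0.0474), and -1.11 ± 0.33 without the 2 shallowest libraries (adjusted p = 0.082). Zp3 and Zp2, which encode the main filament proteins of the coat, did not pass. Zp3 averaged 192 ± 51.2 CPM at 7 weeks and 357 ± 129 CPM at 4 weeks (SD, n = 5 and 12), a log2 difference of -0.90 ± 0.26 with an adjusted p of 0.0544. Zp2 averaged 167 ± 33.3 CPM at 7 weeks and 240 ± 70.2 CPM at 4 weeks, with -0.52 ± 0.21 and an adjusted p of 0.126. All 5 of the 7 week libraries were below the 4 week median for both genes.

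The other growth factor of the pair measured level. Bmp15, which acts with GDF9 on granulosa cells, had 1281, 1686, 2229, 1197 and 1758 CPM at 7 weeks, against a lowest of 1094, a median of 1665 and a highest of 2370 CPM at 4 weeks. The groups overlapped throughout, and the log2 difference was -0.06 ± 0.17 (adjusted p = 0.872). Kit, the receptor through which granulosa cells signal to the oocyte, averaged 172 ± 56.0 CPM at 7 weeks and 174 ± 30.5 CPM at 4 weeks, and Npm2, a chaperone of oocyte chromatin, 1250 ± 100.5 CPM at 7 weeks and 1300 ± 372 CPM at 4 weeks. Dppa3, a maternal factor that protects methylation in the early embryo, averaged 1686 ± 497 CPM at 7 weeks and 2060 ± 801 CPM at 4 weeks (adjusted p = 0.39). Esr2 itself, the gene the study removes in its other mice, averaged 62.2 ± 12.7 CPM at 7 weeks and 89.9 ± 20.8 CPM at 4 weeks, with a log2 difference of -0.53 ± 0.25 and an adjusted p of 0.196.

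**Figure D2:**
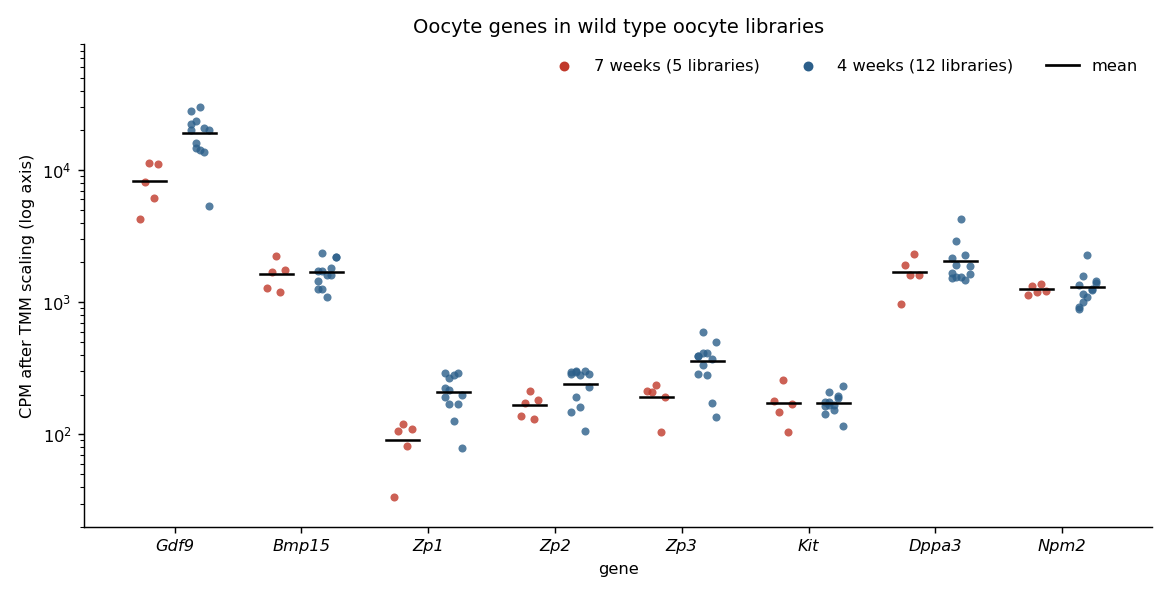
Levels of 8 oocyte genes in CPM on a log axis, with a point for each wild type library (7 weeks in red, 4 weeks in blue) and a black line at each group's mean. Gdf9 and Zp1 sit lower at 7 weeks, with 4 week library 5 the low blue point of both, while Bmp15, Kit and Npm2 overlap throughout.

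Over the 11 tested genes of the zona pellucida and oocyte growth factor list, 2 passed, both lower, against 0.579% of all genes called lower, and 10 had a negative log2 difference. The list's median was -0.36, against 0.00 over all genes. It was -0.38 without the 2 shallowest libraries and kept its sign in all 34 alternatives. The sum of 16 oocyte markers had a median of 20003 CPM at 7 weeks and 31493 CPM at 4 weeks (log2 difference -0.76, exact two-sided permutation p = 0.00323, adjusted p = 0.0226 over 7 marker lists). Gdf9 made up most of that difference. Without it the sums had medians of 10664 CPM at 7 weeks and 11640 CPM at 4 weeks, with a log2 difference of -0.22 and an exact p of 0.143.

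Among 28 maternal effect genes, whose products the early embryo needs, Tle6 alone passed, against 0.579% of all genes called lower. It encodes a part of the subcortical maternal complex, and it averaged 254 ± 64.9 CPM at 7 weeks and 492 ± 150 CPM at 4 weeks (log2 difference -0.95 ± 0.24, adjusted p = 0.0422). The other parts of that complex on the list did not pass. Nlrp5 averaged 427 ± 98.4 CPM at 7 weeks and 399 ± 123 CPM at 4 weeks, and Ooep 1451 ± 587 CPM at 7 weeks and 1572 ± 599 CPM at 4 weeks. The median of the list was -0.07, with 16 of 28 genes negative.

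The machinery of the meiotic divisions gave mostly negative differences, with a single gene past the test. Of 44 tested kinases, cyclins and regulators of the anaphase-promoting complex, 35 had a negative log2 difference, against 6744 of all 13471 genes. The median was -0.29, and 0.03 in knockout oocytes. Only Bub3 passed, against 0.579% of all genes called lower. Bub3, a protein of the spindle checkpoint, had 45.7, 96.9, 109.8, 137 and 132 CPM at 7 weeks, against 103, 198 and 282 CPM (lowest, median and highest) at 4 weeks. All 5 libraries were below the 4 week median, and the ranges overlapped at their edges (log2 difference -0.98 ± 0.23, adjusted p = 0.0422). Next in order and short of the threshold were Ube2c, the ubiquitin-conjugating enzyme of that complex, with -0.89 ± 0.24 (adjusted p = 0.0527), Ccnb2, a cyclin, with -0.75 ± 0.22 (0.0624), and Plk1, a mitotic kinase, with -0.98 ± 0.30 (0.0662). Mos, the kinase that holds the egg in its second arrest, averaged 1049 ± 479 CPM at 7 weeks and 1743 ± 506 CPM at 4 weeks (adjusted p = 0.138). Of 45 spindle and actin genes 33 were negative and 0 passed, against 0.824% of all genes past the test.

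The gene with the smallest p was Lurap1l, a gene named for its likeness to the adaptor gene Lurap1. It had 34.4, 85.8, 119, 110.2 and 130.1 CPM at 7 weeks, against 72.4 (lowest), 296 (median) and 426 CPM (highest) at 4 weeks. The second lowest 4 week library was at 238 CPM, above every 7 week library, so 4 week library 5 alone overlapped. The log2 difference was -1.61 ± 0.30 (adjusted p = 0.028). Lurap1l was past the test in 26 of 34 alternatives, the most of any named gene, and remained so without the 2 shallowest libraries (-1.53 ± 0.29, adjusted p = 0.0271). The gene lies on chromosome 4 from 80910646 to 80955628 (plus strand, GRCm38).

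Bscl2, which encodes seipin, a protein of the endoplasmic reticulum needed to form lipid droplets, averaged 361 ± 77.0 CPM at 7 weeks and 717 ± 168 CPM at 4 weeks (log2 difference -0.99 ± 0.21, adjusted p = 0.0284). Lamtor1 anchors on the lysosome the complex that activates mTORC1. It had 28.7, 36.2, 48.2, 16.7 and 31.8 CPM at 7 weeks, against 61.0, 77.7 and 108.7 CPM (lowest, median and highest) at 4 weeks, so the groups did not overlap. Its log2 difference was -1.32 ± 0.28 (adjusted p = 0.0284). Tmbim6, a calcium channel-like protein of the endoplasmic reticulum that protects from cell death, averaged 241 ± 39.0 CPM at 7 weeks and 413 ± 107 CPM at 4 weeks (-0.77 ± 0.18, adjusted p = 0.0422).

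Mitochondrial dynamics contributed Mff, the outer membrane receptor that recruits the fission protein DRP1, and Oma1, a stress-activated inner membrane protease. Mff averaged 308 ± 129 CPM at 7 weeks and 672 ± 252 CPM at 4 weeks (log2 difference -1.13 ± 0.24, adjusted p = 0.0284). Oma1 averaged 83.6 ± 21.6 CPM at 7 weeks and 174 ± 38.4 CPM at 4 weeks (-1.06 ± 0.23, adjusted p = 0.0355). They were the 2 genes past the test of 37 tested in mitochondrial upkeep, against 0.579% of all genes called lower. Of the 37 genes 16 were negative, and the list's median was 0.14. Dnm1l, which encodes DRP1, did not pass (200 ± 25.2 CPM at 7 weeks and 154 ± 41.5 CPM at 4 weeks, adjusted p = 0.209).

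Senp5, a SUMO protease, had 41.5, 32.9, 40.1, 32.9 and 41.5 CPM at 7 weeks, against 43.2, 60.5 and 114 CPM (lowest, median and highest) at 4 weeks, with no overlap. Its log2 difference was -0.84 ± 0.17 (adjusted p = 0.0284). Rbbp4, a histone-binding subunit shared by several chromatin complexes, averaged 51.7 ± 4.26 CPM at 7 weeks and 84.4 ± 17.3 CPM at 4 weeks, also with no overlap (-0.71 ± 0.17, adjusted p = 0.0422). Mlx, a partner of glucose-sensing transcription factors, Rnf216, a ubiquitin ligase, Tmem108, a membrane protein studied in neurons, and Dppa2, a chromatin factor of germ cells and the early embryo, had log2 differences of -1.07, -0.75, -1.26 and -0.96.

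The 24 tested endoplasmic reticulum chaperones and stress genes had a median log2 difference of -0.25, with 15 negative and 9 positive. Of these endoplasmic reticulum genes 3 passed, against 0.824% of all genes, and all 3 fell. Hspa5 encodes BiP, the main chaperone of that compartment. It had 235, 301, 232, 173 and 222 CPM at 7 weeks, against 192 (lowest), 458 (median) and 567 CPM (highest) at 4 weeks. Every 7 week library was under the 4 week median, and 4 week library 5 was the only one at 4 weeks within their range. The log2 difference was -0.90 ± 0.20 (adjusted p = 0.0367), and Hspa5 stayed past the test without the 2 shallowest libraries (-0.998 ± 0.206, adjusted p = 0.0394).

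Pdia6, a disulfide isomerase that works with BiP, had 211, 352, 327, 276 and 424 CPM at 7 weeks, against 189, 608 and 1020 CPM (lowest, median and highest) at 4 weeks. All of its 7 week values were under the 4 week median, with 4 week library 5 lowest of all (log2 difference -0.998 ± 0.244, adjusted p = 0.0422). Dnajc3, a co-chaperone of BiP that also inhibits the stress kinase PERK, had 370, 518, 728, 621 and 812 CPM at 7 weeks, against 556, 976 and 1180 CPM at 4 weeks. All 5 of its 7 week libraries were below the 4 week median and the ranges overlapped (-0.63 ± 0.16, adjusted p = 0.0422). Without the 2 shallowest libraries the adjusted p was 0.0557 for Pdia6 and 0.0716 for Dnajc3. In granulosa libraries, without TMM scaling, Hspa5 averaged 1678 CPM at 7 weeks and 1262 CPM at 4 weeks. Pdia6 averaged 1298 and 1299 CPM there, and Dnajc3 231 and 187 CPM, at the same ages. The sum of granulosa markers in the oocyte libraries had medians of 609 CPM at 7 weeks and 988 CPM at 4 weeks, and the part of granulosa RNA in the fall of these 3 genes was not tested.

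These 3 genes share a promoter feature. They come from a list of endoplasmic reticulum stress genes, so the presence of the stress element in them is a description and no independent test. The endoplasmic reticulum stress response element, CCAAT and CCACG with 9 bases of any kind between them, is the site at which NF-Y and ATF6 are known to act. It was sought on both strands of the 250 bases before each gene's start in RefSeq (GRCm38.p6), and all 3 promoters hold 1 copy in the forward direction. They are Hspa5 at chr2:34771840-34772089, Pdia6 at chr12:17266339-17266588 and Dnajc3 at chr14:118937682-118937931, each on the plus strand. The sequences are shown so that the shared element can be seen in its place, with its fixed bases in capitals.
Hspa5: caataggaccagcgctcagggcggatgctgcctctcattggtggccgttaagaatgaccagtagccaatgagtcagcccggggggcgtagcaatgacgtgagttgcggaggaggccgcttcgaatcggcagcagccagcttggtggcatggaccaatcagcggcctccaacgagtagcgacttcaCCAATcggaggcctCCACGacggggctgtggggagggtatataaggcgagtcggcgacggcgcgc
Pdia6: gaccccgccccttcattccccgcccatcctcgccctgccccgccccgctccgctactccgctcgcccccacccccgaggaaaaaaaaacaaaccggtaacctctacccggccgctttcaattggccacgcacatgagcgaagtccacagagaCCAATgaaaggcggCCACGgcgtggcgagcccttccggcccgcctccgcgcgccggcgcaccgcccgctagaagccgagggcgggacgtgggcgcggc
Dnajc3: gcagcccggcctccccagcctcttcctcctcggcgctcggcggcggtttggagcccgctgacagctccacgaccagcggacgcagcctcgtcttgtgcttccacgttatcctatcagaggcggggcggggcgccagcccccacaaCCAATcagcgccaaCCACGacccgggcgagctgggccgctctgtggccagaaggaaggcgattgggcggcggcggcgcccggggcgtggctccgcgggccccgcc
The element begins 65, 98 and 105 bases before the start of Hspa5, Pdia6 and Dnajc3. Of 27025 genes with a promoter in the table, 35 hold it (0.13%). Of the 24 tested list members 21 had a promoter there and 8 hold the element, the other 5 being Creld2, Syvn1, Canx, Hsp90b1 and Calr. The 8 had a median log2 difference of -0.56 with 7 negative, and the 13 without it a median of 0.12 with 6 negative. The 8 include the 3 genes named because they fell, so this split is no test of the element. Of the other 5, Calr and Hsp90b1, abundant chaperones, had -0.07 ± 0.17 and -0.18 ± 0.20. Creld2 and Syvn1 had -0.49 and -0.78, and Canx had 0.35. Over all 20 tested genes with the element, the median was -0.06 and 11 were negative. The same 3 passed, against 0.824% of all genes, and being named because they fell they make this count no test either. Gdf9 and Zp1 have no entry in this table.

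Genes of transport out of the endoplasmic reticulum were looked at after Tmed9, Lman2, Emc3 and Sec13 were seen among the lower genes, so their list is a description. Of 68 tested genes of the translocon, glycosylation enzymes and vesicle coats, those 4 passed, against 0.579% of all genes called lower, and the list was made with these 4 in view. Sec13, a coat protein of the vesicles that leave this compartment, averaged 290 ± 143 CPM at 7 weeks and 689 ± 197 CPM at 4 weeks (log2 difference -1.25 ± 0.33, adjusted p = 0.0492). Tmed9, a cargo receptor of the same route, averaged 237 ± 85.9 CPM at 7 weeks and 481 ± 154 CPM at 4 weeks (-1.02 ± 0.25, adjusted p = 0.0422). The list as a whole had a median of -0.05, with 37 of 68 negative.

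Among the genes that rose, Smarcc2, a core subunit of BAF chromatin remodellers, had the smallest p. It had 49.8, 18.02, 17.6, 24.5 and 19.8 CPM at 7 weeks, against 4.58, 7.22 and 22.5 CPM (lowest, median and highest) at 4 weeks. The highest 4 week value was that of library 5, and the next was 11.9 CPM, so without that library the ages would not overlap. The log2 difference was 1.55 ± 0.31 (adjusted p = 0.0284), and 1.36 ± 0.31 without the 2 shallowest libraries (adjusted p = 0.0557). Elk4, an ETS family transcription factor, had 84.2, 55.5, 63.0, 62.8 and 55.0 CPM at 7 weeks, against 21.5, 31.1 and 45.8 CPM at 4 weeks, with no overlap (1.01 ± 0.21, adjusted p = 0.0284).

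Epb41l4b, a membrane skeleton protein, and Slc25a23, a calcium-regulated carrier of the inner mitochondrial membrane, also showed no overlap. Epb41l4b averaged 41.7 ± 5.79 CPM at 7 weeks and 19.95 ± 7.01 CPM at 4 weeks (log2 difference 1.06 ± 0.24, adjusted p = 0.0367). Slc25a23 averaged 21.2 ± 5.23 CPM at 7 weeks and 8.07 ± 3.00 CPM at 4 weeks (1.396 ± 0.335, adjusted p = 0.0422). Ssx2ip, a centrosome protein, averaged 92.6 ± 44.9 CPM at 7 weeks and 35.1 ± 21.6 CPM at 4 weeks (1.4 ± 0.34, adjusted p = 0.0422). Dtx3l, Sugp2, Homer1, Ccdc12 and Ap2b1 had log2 differences of 1.77, 1.42, 1.68, 1.23 and 0.89, and Osbpl9, an oxysterol-binding protein, 0.88.

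Cyp11a1 gave the largest fold change of the 14 leading higher genes. It encodes the enzyme that makes the first steroid from cholesterol, and somatic cells of the follicle are its known site. It had 27.6, 25.2, 1.12, 39.2 and 59.1 CPM in 7 week libraries 1 to 5, against 0.353, 1.19 and 15.9 CPM (lowest, median and highest) at 4 weeks. The highest 4 week value was that of library 11, and 7 week library 3 lay below the 4 week median while the other 4 lay above every 4 week library. The log2 difference was 3.39 ± 0.76 (adjusted p = 0.0396). In the granulosa libraries of the study, without TMM scaling, Cyp11a1 averaged 5715 CPM at 7 weeks and 4995 CPM at 4 weeks.

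Col4a1, a basement membrane collagen, and Fam126a, part of a lipid kinase complex at the cell surface, were likewise high in granulosa libraries. Col4a1 averaged 13.05 ± 12.7 CPM at 7 weeks and 3.14 ± 1.70 CPM at 4 weeks in oocytes (log2 difference 2.05 ± 0.49, adjusted p = 0.0422), and 223 CPM at 7 weeks and 304 CPM at 4 weeks in granulosa libraries. Its values in 7 week oocyte libraries 1 to 5 were 19.6, 32.4, 3.93, 4.03 and 5.21 CPM. Only libraries 1 and 2 lay above the highest 4 week value, 6.00 CPM. The log2 difference ran from 1.34 to 2.28 when 1 library was left out. Fam126a averaged 20.5 ± 9.60 CPM at 7 weeks and 6.395 ± 4.24 CPM at 4 weeks in oocytes (1.66 ± 0.40, adjusted p = 0.0422), and 238 CPM at 7 weeks and 429 CPM at 4 weeks in granulosa libraries. At 4 weeks library 11 held the highest level of all 3 genes, and also the highest sums of cumulus markers (94.9 CPM, against a 4 week median of 4.35 CPM) and of theca and stroma markers (40.8 CPM, against 8.25 CPM). At 7 weeks library 2 held the highest of those sums (42.4 and 48.1 CPM) and the highest Col4a1. The highest Cyp11a1 and Fam126a at 7 weeks were those of libraries 5 and 1. The summed granulosa markers in oocyte libraries had medians of 609 CPM at 7 weeks and 988 CPM at 4 weeks (log2 difference -0.59, exact permutation p = 0.0566, adjusted p = 0.099). Serpine2 made up most of that sum, with 535 ± 203.5 CPM at 7 weeks and 887 ± 303 CPM at 4 weeks. Of the 10 markers 8 had a positive log2 difference and 0 passed. The part of somatic cell RNA in these 3 genes was not tested.

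**Figure D3:**
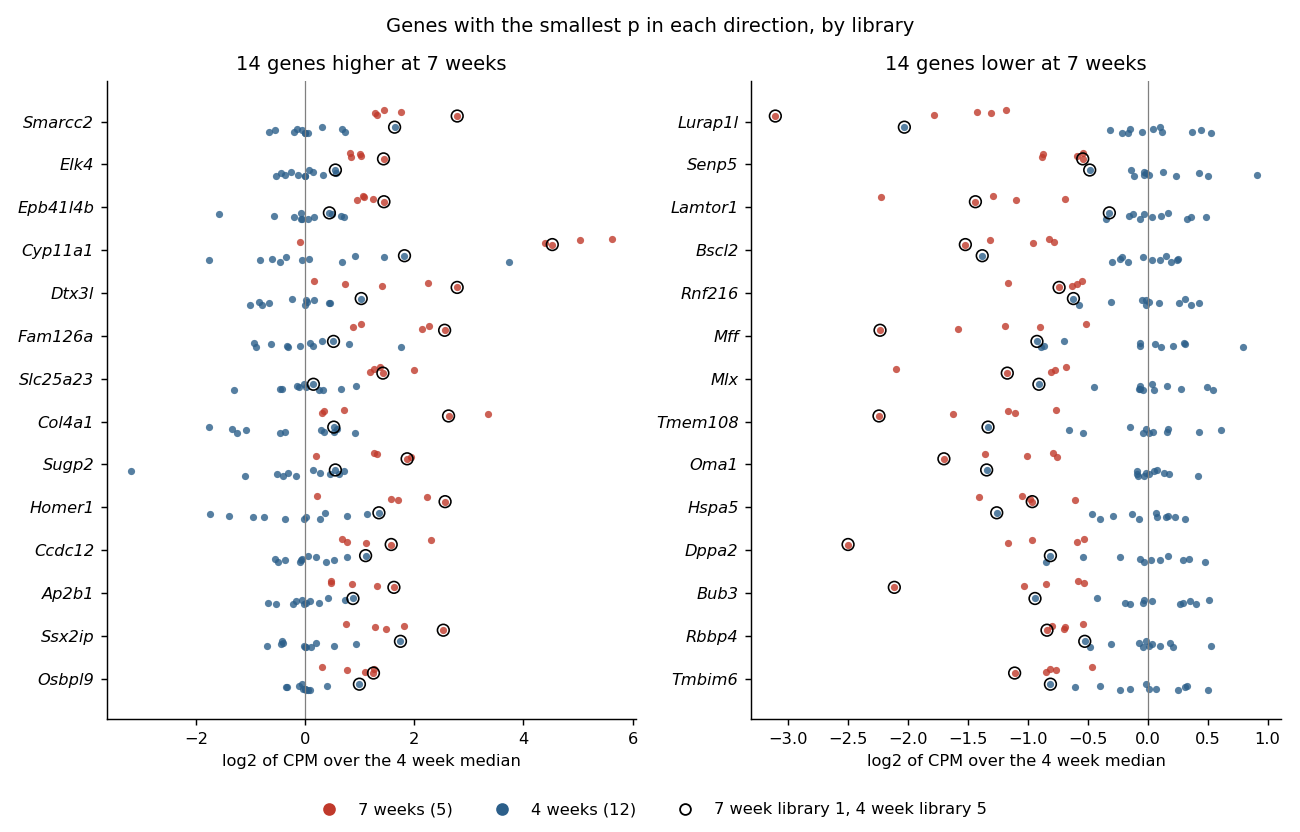
The log2 ratio of each library's CPM to the 4 week median, for the 14 higher (left) and 14 lower (right) genes of smallest p, with 7 week libraries in red above 4 week libraries in blue. Black rings mark 7 week library 1 and 4 week library 5, the shallowest of each age, and over all genes past the test 4 week library 5 was the lowest of its age for 66 of the 78 lower and the highest for 22 of the 33 higher genes.

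Of 46 chromatin proteins and remodellers 1 passed as higher and 1 as lower, against 0.245% and 0.579% of all genes. Cbx5, which encodes the heterochromatin protein HP1 alpha, rose to 50.4 ± 13.8 CPM at 7 weeks, against 25.3 ± 10.1 CPM at 4 weeks (log2 difference 0.99 ± 0.26, adjusted p = 0.0422). H2ax, the histone variant phosphorylated at DNA breaks, fell to 18.6 ± 7.70 CPM at 7 weeks, against 49.8 ± 19.2 CPM at 4 weeks (-1.41 ± 0.36, adjusted p = 0.0422). The list's median was 0.31, with 31 of 46 positive. H1f8, the linker histone of oocytes and the most abundant of these genes, averaged 9687 ± 4455 CPM at 7 weeks and 17953 ± 4831 CPM at 4 weeks and did not pass (adjusted p = 0.0746).

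Single members of 4 further lists passed, of 51, 34, 23 and 35 tested genes, against 0.824% of all genes. Exosc10, a catalytic subunit of the nuclear RNA exosome, averaged 74.3 ± 14.5 CPM at 7 weeks and 122 ± 29.5 CPM at 4 weeks (log2 difference -0.71 ± 0.18, adjusted p = 0.0422). Ldhb, a lactate dehydrogenase subunit, averaged 1115 ± 529 CPM at 7 weeks and 2361 ± 827 CPM at 4 weeks (-1.08 ± 0.27, adjusted p = 0.0422). The locus Ldhb-ps, named as its pseudogene, moved with it (-1.13), and how reads were split between them is uncertain. Ncor1, a corepressor of nuclear receptors, averaged 162 ± 34.7 CPM at 7 weeks and 93.5 ± 21.7 CPM at 4 weeks (0.79 ± 0.21, adjusted p = 0.046). Stk11, which encodes the kinase LKB1 upstream of AMPK, averaged 62.6 ± 13.998 CPM at 7 weeks and 26.6 ± 12.3 CPM at 4 weeks (1.23 ± 0.30, adjusted p = 0.0422).

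Of the 25 gene lists, marker lists aside, the 3 with the highest medians were ribosomal proteins, mRNA storage and oxidative phosphorylation. Of their genes 0 passed, against 0.824% of all genes. Cytosolic ribosomal protein genes had a median of 0.64 over 45 tested, 39 of them positive, with 12 at an unadjusted p under 0.05. Among its more abundant members, Rpl4 averaged 145 ± 46.6 CPM at 7 weeks and 143 ± 24.98 CPM at 4 weeks, and Rpl17 108.5 ± 55.5 CPM at 7 weeks and 170 ± 58.2 CPM at 4 weeks, so the positive median was not that of these 2 genes. Genes of mRNA storage and translational control had a median of 0.51 over 32, and nuclear genes of oxidative phosphorylation 0.41 over 76. Histone and DNA methylation modifiers had a median of 0.37 over 58 with 0 past the test, and the proteasome and ubiquitin list -0.26 over 42. The background for all of these was 0.00. The remaining lists had medians of 0.38 (23 steroid and nuclear receptors), 0.31 (51 genes of mRNA decay), 0.29 (22 heat shock and immediate early genes), 0.28 (35 genes of PI3K, mTOR and TGF-beta signalling), 0.21 (38 antioxidant genes), 0.20 (21 genes of meiotic arrest, and likewise 36 of meiotic chromosomes), 0.15 (25 small RNA pathway genes), -0.16 (45 spindle and actin genes) and -0.28 (34 genes of glycolysis and the TCA cycle). Those of 17 oocyte transcription factors, 32 fertilisation genes and 37 genes of cholesterol and lipid metabolism were -0.009, -0.023 and 0.015.

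Those medians moved with the measures of library quality. With the ribosomal RNA share as a covariate, the median of the ribosomal protein list was 0.04 and that of oxidative phosphorylation 0.06. In the same fit that of mRNA storage was 0.27 and that of the histone modifiers 0.20. With the length tilt as a covariate, the median of the histone modifiers was 0.04 and that of mRNA storage 0.09. That of the ribosomal proteins was 0.42 and that of oxidative phosphorylation 0.38 in this fit. The zona and growth factor list had -0.37 and -0.25 in those 2 fits, against -0.36 without a covariate. The endoplasmic reticulum list had -0.17 and -0.19, against -0.25 without a covariate. Over the 8744 genes with a mean of at least 5 CPM, split into 5 classes by transcript length, the longest class had a median log2 difference of 0.28 and the middle class of -0.185. In knockout oocytes the same classes had 0.065 and -0.012. The classes held 1748 to 1750 genes each. From shortest to longest, their wild type medians were -0.105, -0.182, -0.185, 0.028 and 0.28, which is not a steady rise. In the same order they held 7, 4, 5, 5 and 9 higher genes past the test. The lower genes past the test numbered 10, 21, 24, 15 and 3. Over all genes tested, 0.245% were called higher and 0.579% lower.

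**Figure D4:**
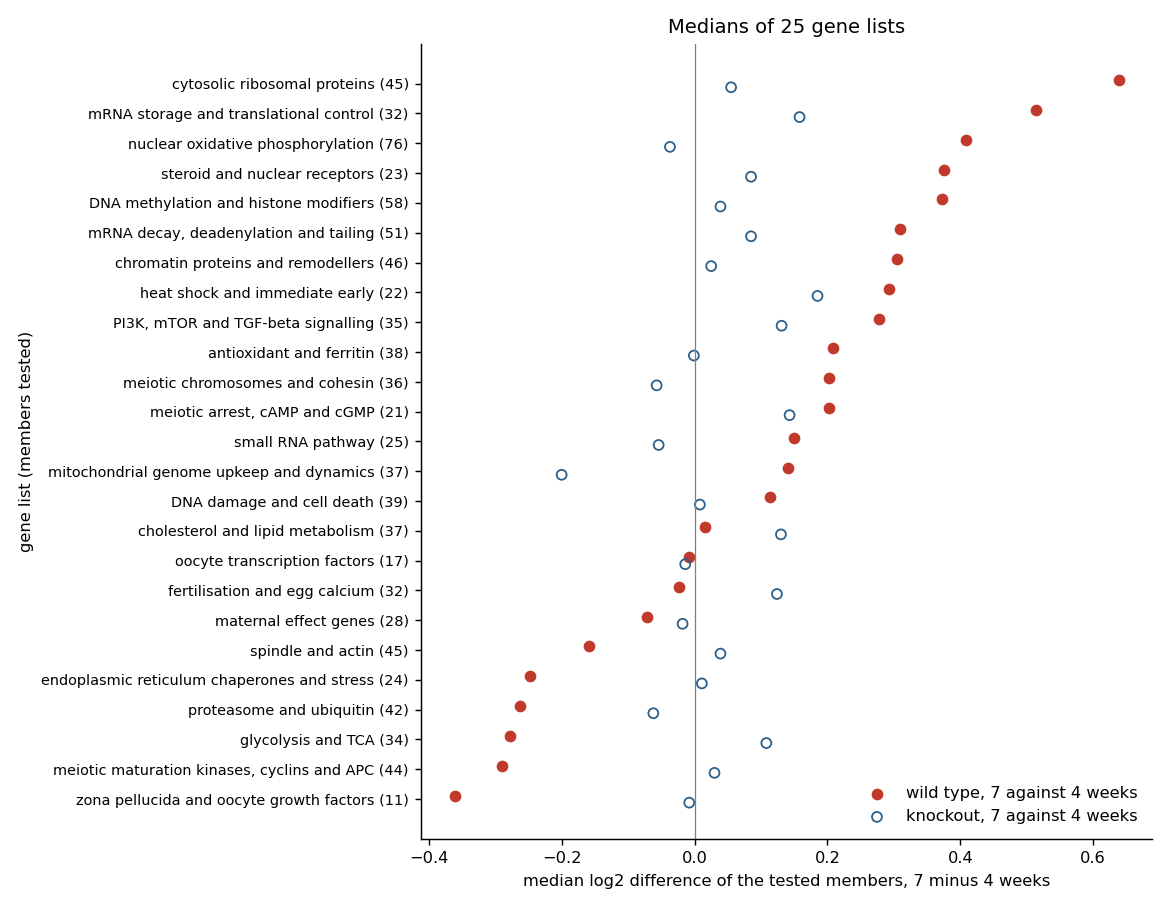
Median log2 difference between 7 and 4 weeks over the tested members of 25 gene lists, with the number tested in brackets, for wild type (red, filled) and knockout oocytes (blue, open). In wild type the medians run from -0.36 for zona pellucida and oocyte growth factors to 0.64 for ribosomal proteins.

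The same step in age was measured in oocytes without Esr2, with 12 libraries at 7 weeks and 7 at 4 weeks. In these 3 genes passed (0.0223%, edgeR), and Dcaf5, a receptor subunit of a ubiquitin ligase, was the only one past the test in both genotypes. Dcaf5 rose in wild type (log2 difference 0.94 ± 0.24, adjusted p = 0.0422) and in knockout oocytes (1.27 ± 0.23, adjusted p = 0.0063). It averaged 88.8 ± 5.68 CPM at 7 weeks and 46.1 ± 16.1 CPM at 4 weeks in wild type oocytes. Of the 33 genes higher in wild type 29 had a positive difference in knockout oocytes, with a median of 0.19, and of the 78 lower genes 65 had a negative one, with a median of -0.22. Over all genes 55.8% were on the same side in both genotypes.

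A test of the difference between the age effects of the 2 genotypes gave 0 genes (edgeR, smallest adjusted p = 0.234), with 1526 at an unadjusted p under 0.05. The same test gave 0 genes with limma voom and 12 with DESeq2. Gdf9 averaged 14951 ± 5043 CPM at 7 weeks and 14654 ± 4829 CPM at 4 weeks in knockout oocytes, a log2 difference of 0.03 ± 0.26. Its age effect in knockout minus that in wild type was 1.25 ± 0.41 (adjusted p = 0.337). Cyp11a1 averaged 1.72 ± 1.80 CPM at 7 weeks and 3.34 ± 4.68 CPM at 4 weeks in knockout oocytes, and Hspa5 285 ± 68.0 CPM at 7 weeks and 320.1 ± 83.6 CPM at 4 weeks. The difference of the age effects for Cyp11a1 was -4.33 ± 1.09 (adjusted p = 0.234) and for Hspa5 0.73 ± 0.26 (adjusted p = 0.337), so it passed the threshold for none of the 3.

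**Figure D5:**
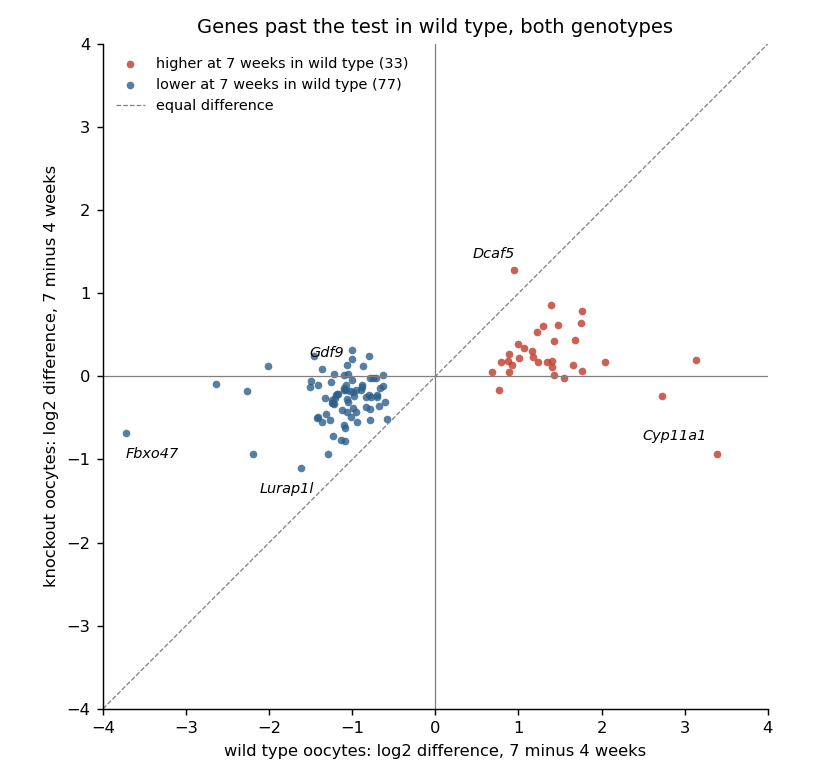
Each point is a gene past the test in wild type oocytes, with its log2 difference (7 minus 4 weeks) in wild type on the horizontal and in knockout oocytes on the vertical axis, red for higher and blue for lower at 7 weeks. In knockout oocytes 29 of the 33 higher and 65 of the 78 lower genes were on the same side of 0, and Oxsm, at 0 counts in the 7 week wild type libraries, is left out.

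Wild type oocytes of 6 months, with 11 libraries, give the levels at a later age. Gdf9 averaged 19092 ± 6784 CPM at 4 weeks, 8217 ± 3079 CPM at 7 weeks and 18394 ± 8170 CPM at 6 months. Zp3 averaged 357 ± 129, 192 ± 51.2 and 680.2 ± 182 CPM at the same ages, and Hspa5 433 ± 107, 232 ± 45.8 and 378 ± 81.3 CPM. Lurap1l averaged 295 ± 92.4, 96.0 ± 38.1 and 146 ± 41.0 CPM. Gdf9, Zp3 and Hspa5 were thus lowest at 7 weeks in their means, while Lurap1l at 6 months stayed below its mean at 4 weeks. No test is given here, because the step to 6 months shares the 7 week libraries with the comparison of 7 and 4 weeks.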

How the data were processed

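Oocyte RNA was measured by Smart-seq2 in 51 libraries, of which 17 are wild type at 7 or 4 weeks. The submitters' processing notes name STAR, Partek, DESeq2 and the mm10 genome, without versions; the gene annotation is not given in the sources used here. The deposited tables hold expected counts, estimated per gene and not normalised by the authors, and these were rounded to whole counts. Tables of the authors' normalised signal were not used. The 3 oocyte tables were joined by symbol (15022 genes in all 3), filtered with filterByExpr, scaled by TMM and fitted with 1 mean for each of 6 groups of age and genotype. The test was the robust quasi-likelihood F test of edgeR 4.0.16 in R 4.3.3, with Benjamini-Hochberg adjustment over all genes and a threshold of 0.05. Log2 differences are 7 minus 4 weeks and carry the SE of that fit; CPM means carry the SD over libraries. Exact permutation tests used scipy 1.17.1. The fit was tested on simulated data. Alternatives were another tool, scaling or filter, other groups or covariates, and leaving out libraries.

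Genes were named by rule: a panel of 9 genes, the 14 higher and 14 lower genes of smallest p with a mean of at least 5 CPM, and up to 4 genes past the test per list. Other genes were chosen after their values were seen. The gene lists, members and tests were chosen with earlier results of these data known. Of the 25 gene lists and 8 marker lists, the erythroid markers had no gene in the tables. Coordinates are from GENCODE vM21 (GRCm38), and transcript lengths are medians from the same source, known for 98.1% of tested genes. Of the knockout columns, 1 joins 2 sample numbers and was kept as an unnumbered library. No pair of libraries held identical values. Mitochondrially encoded genes were not analysed here.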

Additional observations from a re-analysis of the deposited data

Results flagged for a closer look

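Of 58 groups of values examined for a single library far from the others, 5 were marked, and chance marks about 1 in 20 such groups. Each group held the 5 libraries of 7 weeks, and libraries of 4 weeks were not examined in this way. Among the 7 week libraries, library 1 had the highest Smarcc2 at 49.8 CPM, with the next at 24.5 CPM. It had the highest Elk4 as well, at 84.2 CPM, with the next at 63.0 CPM. Library 3 had the highest Slc25a23 at 30.4 CPM, with the next at 20.4 CPM. Library 1 also had the fewest genes with at least 1 count, 13161, and the largest share of counts on the ribosomal RNA locus, 8.07%, with the next library at 2.07%. Smarcc2 and Elk4 are the 2 higher genes of smallest p. Without this library and the shallowest 4 week library their log2 differences were 1.36 and 0.93, against 1.55 and 1.01 with them.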

How the results depend on the processing

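The direction of all 111 genes held in each of 34 alternatives in which they had a value, but the number past the test did not hold. It was 1109 with DESeq2 (363 higher, 746 lower), 215 with limma voom (120 higher), 15 with no filter on low counts (4 and 11), 422 with a stricter filter (122 and 300) and 1087 with log2 library total as a covariate (349 and 738). With only the 2 wild type groups it was 0 in both directions, also on the genes of the full fit. With a replicate block added it was 0 too (edgeR, smallest adjusted p = 0.538). Shared numbers did not pair the libraries: the deviations of same-numbered libraries correlated at -0.389, 0.153, -0.14, 0.136 and -0.639. No 7 week library correlated best with the 4 week library of its number, which ranked 11, 2, 9, 2 and 12 of 12. The number past the test was also 0 with the granulosa marker share or the length tilt as a covariate, and 1 with the ribosomal RNA share (0 higher, 1 lower). Leaving out 1 library gave 0 to 1686 genes (0 to 730 higher, 0 to 956 lower): 0 without 7 week libraries 1 or 2 or 4 week library 1, and 4 without 7 week library 4, 520 without 7 week library 5, 1686 without 4 week library 5, 248 and 177 without 4 week libraries 3 and 11, and 17, 15, 11, 12, 8, 5 and 8 without 4 week libraries 2, 4, 6, 7, 8, 10 and 12. Chosen after the data were seen, the 4 groups of 4 and 7 weeks gave 37 (14 lower), leaving out the 2 shallowest libraries 7 (0 higher, 7 lower), and taking missing genes as 0 gave 281 (105 and 176). The difference between genotypes in the age effect was 12 genes with DESeq2, 37 with log2 total as a covariate, and 0 in the other settings run. The summed oocyte markers gave -0.22 (exact p = 0.143) without Gdf9. The granulosa sum gave -0.53 (exact p = 0.0308) without the 2 shallowest libraries and -0.73 to -0.41 when 1 library was left out, with an unadjusted exact p of 0.0407 without 7 week library 2, 0.0341 without 7 week library 5 and 0.00962 without 4 week library 5, against 0.0566 with all. Signs turned for 3 genes near 0: Kit (-0.217 to 0.089 when 1 library was left out) gave 0.006 with DESeq2, 0.005 with its size factors, 0.012 in the 4 groups, and 0.005 to 0.089 without 7 week library 4 or 5 or 4 week library 1, 7 or 9 (0.089, 0.009, 0.005, 0.006 and 0.011). Bmp15 (-0.195 to 0.012 when 1 library was left out) gave 0.15 with the block, 0.012 and 0.003 without 7 week library 4 or 4 week library 10, and 0.036 without the 2 shallowest. Npm2 (-0.112 to 0.046) gave 0.046 without 4 week library 3 and 0.105 with the length tilt. The cause was not tested. Of 1564 values for 46 single genes, 865 kept their side of the threshold and direction, 679 no longer passed and 6 newly passed.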

Other observations

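The genes named here belong to no list and were named after their values were seen. Dclre1a, a nuclease of DNA crosslink repair, averaged 519 ± 192 CPM at 7 weeks and 1180 ± 439 CPM at 4 weeks (log2 difference -1.18 ± 0.29, edgeR adjusted p = 0.0422). Tdp1, which removes protein adducts from DNA ends, averaged 56.6 ± 25.6 CPM at 7 weeks and 131 ± 47.4 CPM at 4 weeks (-1.20 ± 0.32, adjusted p = 0.0492), and Ddb2, a sensor of ultraviolet damage, 110.3 ± 39.3 CPM at 7 weeks and 229 ± 68.1 CPM at 4 weeks (-1.05 ± 0.27, adjusted p = 0.0422). All 3 fell. The 39 tested genes of the DNA damage and cell death list had a median of 0.11. Of them 0 passed, which is near the share of 0.824% over all genes.

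Ash1l and Phf2 rose. Of the 58 tested genes of the histone and DNA methylation modifier list 0 passed, which is near the share of 0.824% over all genes. Ash1l, a histone methyltransferase, averaged 70.0 ± 40.7 CPM at 7 weeks and 28.4 ± 14.5 CPM at 4 weeks (1.30 ± 0.33, adjusted p = 0.0422), and Phf2, a histone demethylase, 25.997 ± 15.5 CPM at 7 weeks and 9.63 ± 6.13 CPM at 4 weeks (1.43 ± 0.36, adjusted p = 0.0422). Foxm1, a transcription factor of the cell cycle, averaged 39.2 ± 9.30 CPM at 7 weeks and 14.9 ± 7.95 CPM at 4 weeks (1.3998 ± 0.351, adjusted p = 0.0422). Oxsm, a mitochondrial enzyme of fatty acid synthesis, had 0 counts in all 5 of the 7 week libraries and averaged 1.36 CPM at 4 weeks. It was at least 10.8-fold lower at 7 weeks, with a floor of 3 counts over the group, which covers counting error only.

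Immune markers in the oocyte libraries summed to medians of 21.0 CPM at 7 weeks and 40.3 CPM at 4 weeks (log2 difference -1.10, exact permutation p = 0.0423, adjusted p = 0.099 over 7 lists). Neither this sum nor the 4 that follow passed after adjustment. Cumulus markers had medians of 15.2 CPM at 7 weeks and 4.35 CPM at 4 weeks (exact p = 0.18), theca and stroma markers 11.3 CPM at 7 weeks and 8.25 CPM at 4 weeks (exact p = 0.323), endothelial markers 69.5 CPM at 7 weeks and 95.1 CPM at 4 weeks (exact p = 0.043, adjusted p = 0.099), and surface epithelium markers 19.6 CPM at 7 weeks and 14.4 CPM at 4 weeks (exact p = 0.538).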
